A study of Homo sapiens with 17 samples.

Results

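RAB proteins are the largest family of small GTPases, and their mRNAs were followed here through RNA associated with the nuclear and the cytoplasmic poly(A)-binding proteins. The members were all protein-coding genes whose symbol is RAB followed by a number and at most 1 letter. 54 genes met this rule among the 13473 protein-coding genes listed. The cells were HEK293T, a cell line of human embryonic kidney origin. In the RPS2-STAMP line the cytidine deaminase APOBEC1 was fused to RPS2, a protein of the small ribosomal subunit, so that RNAs engaged by ribosomes acquired C-to-U edits. In the Control-STAMP line APOBEC1 was expressed alone. Both were stable lines made with lentivirus, both received 50 ng/ml doxycycline for 24 h to induce the construct, and both were crosslinked with 0.1% formaldehyde. One lysate was divided into Input, an immunoprecipitate (IP) of the nuclear poly(A)-binding protein PABPN and an IP of the cytoplasmic protein PABPC. The methods describe cytoplasmic lysate, whereas the sample labels state no fractionation. The RPS2-STAMP line gave 9 samples, 3 in each fraction. The Control-STAMP line gave 8, with 3 Input, 3 PABPN IP and 2 PABPC IP samples.

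RAB GTPases switch between an inactive GDP-bound and an active GTP-bound form, and in the active form each recruits effectors to a particular membrane. Guanine nucleotide exchange factors (GEFs) load GTP, GTPase-activating proteins (GAPs) speed its hydrolysis, and GDP dissociation inhibitors carry the inactive proteins through the cytosol. Membrane attachment depends on geranylgeranyl groups that are added to cysteines at the C-terminus with the help of an escort protein.

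The end of the coding sequence therefore shows what the family shares and where it departs from it. Of the 54 members, 42 had 2 cysteine codons among the last 5 codons before the stop, 10 had 1 and 2 had none. The cysteine codons were the last 2 codons in 14 members, among them RAB1A and RAB1B. In 16 members the last codon was one of them and the other stood before it with 1 codon in between, as in RAB6A and RAB6B. RAB5A, RAB5B, RAB5C, RAB11A and RAB11B carried an adjacent pair a little further upstream. The 2 members with none were RAB6C and RAB6D, relatives of RAB6A whose coding sequence lies in a single exon. The last 30 coding bases before the stop codon are given for some members of these groups because members of a group are compared with each other, with cysteine codons among the last 5 in capitals (GRCh38, GENCODE release 44, sense strand of the gene).
RAB1B (chr11:66276206-66276235, plus strand): cctgtaaagccggctggcggtggcTGTTGC
RAB5A (chr3:19983791-19983820, plus strand): caaccaaccaggaatcagTGTTGTagtaac
RAB5B (chr12:55992180-55992209, plus strand): cagcagaacaagagccagTGTTGTagcaac
RAB6A (chr11:73677901-73677930, minus strand): caaccagtcagtgaaggaggcTGTtccTGC
RAB6B (chr3:133828791-133828820, minus strand): cccccggccagcgagggcggcTGCtccTGC
RAB6C (chr2:129980848-129980877, plus strand): aattcatcattgctgcctgtctcgtggagg
RAB6D (chr2:131362959-131362988, minus strand): aattcatcattgctgcctgtctcgtggaga
RAB11A (chr15:65887808-65887837, plus strand): aagccaaaggtgcagTGCTGTcagaacatc
RAB11B (chr19:8403526-8403555, plus strand): cccaacaagctgcagTGCTGCcagaacctg
These bases lie in coding exons. RAB6C and RAB6D were identical over 99.5% of aligned coding positions, and the longest stretch shared by their canonical transcripts was 398 bases. RAB6A shared an unbroken stretch of 164 bases with RAB6C and of 160 bases with RAB6D. These stretches exceed the 100-base reads, so some reads cannot be placed in 1 of these genes by sequence. Whether such reads were dropped or counted in the RAB6A, RAB6C and RAB6D values was not tested. The longest stretch shared by any other pair with one number was 55 bases, between RAB40B and RAB40C.

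Ribosome association was read as normalized EPKM, edits per kilobase of transcript scaled to the mapped reads in RPS2-STAMP cells after subtraction of the Control-STAMP value. EPKM was not divided by the abundance of the gene's RNA, so it can also differ with the amount of that RNA in a fraction. Equal EPKM therefore does not mean equal editing per mRNA molecule. RNA abundance was read as TPM, a transcript abundance scaled by transcript length and by the total of the sample. Each gene had 1 EPKM and 1 TPM per fraction, pooled over replicates by the authors, so no value carried a replicate error and no difference could be set against the spread between samples. Neither the number of reads nor the number of edits behind a value was known. The samples were bulk cultures, so fewer cells with an mRNA and less of it per cell cannot be told apart. A total of 45 members had a TPM of 5 or more in both IPs and were compared with the 9607 protein-coding genes at that level. The 5 HEK293 markers VIM, KRT18, NEFL, INA and NEFM passed the same limit, with an Input TPM of 24.1 for INA, 24.8 for KRT18, 26.9 for NEFL and 184 for VIM, while PAX2 was at 0.797. Markers of blood, liver, epithelial and endothelial cells (PTPRC, CD3E, HBB, ALB, EPCAM and PECAM1) were not among the listed genes.

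In each fraction, most RAB mRNAs had an EPKM above 0, that is, more editing than the background, as did most protein-coding genes. The 45 members had a median EPKM of 0.0268 in Input, 0.0362 in the PABPN IP and 0.0469 in the PABPC IP. The corresponding medians of all protein-coding genes were 0.0273, 0.0334 and 0.0501, so members and other genes were at about the same level. The members spread widely in each fraction, with quartiles from 0.0181 to 0.0755 in the PABPN IP and from 0.0205 to 0.0895 in the PABPC IP. The highest value was 0.294 in Input, of RAB1B. EPKM was above 0 for 37 members in Input, 37 in the PABPN IP and 39 in the PABPC IP (82.2%, 82.2% and 86.7%), beside 78.1%, 72.9% and 82.6% of protein-coding genes. It was above 0 in all 3 fractions for 26 members (57.8%, against 50.5% of protein-coding genes), in 2 for 16 (35.6%, against 34.7%) and in 1 for 3 (6.67%, against 12.7%). At 0 in all 3 fractions were 0 members above the TPM limit and 2.07% of protein-coding genes.

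**Figure D1:**
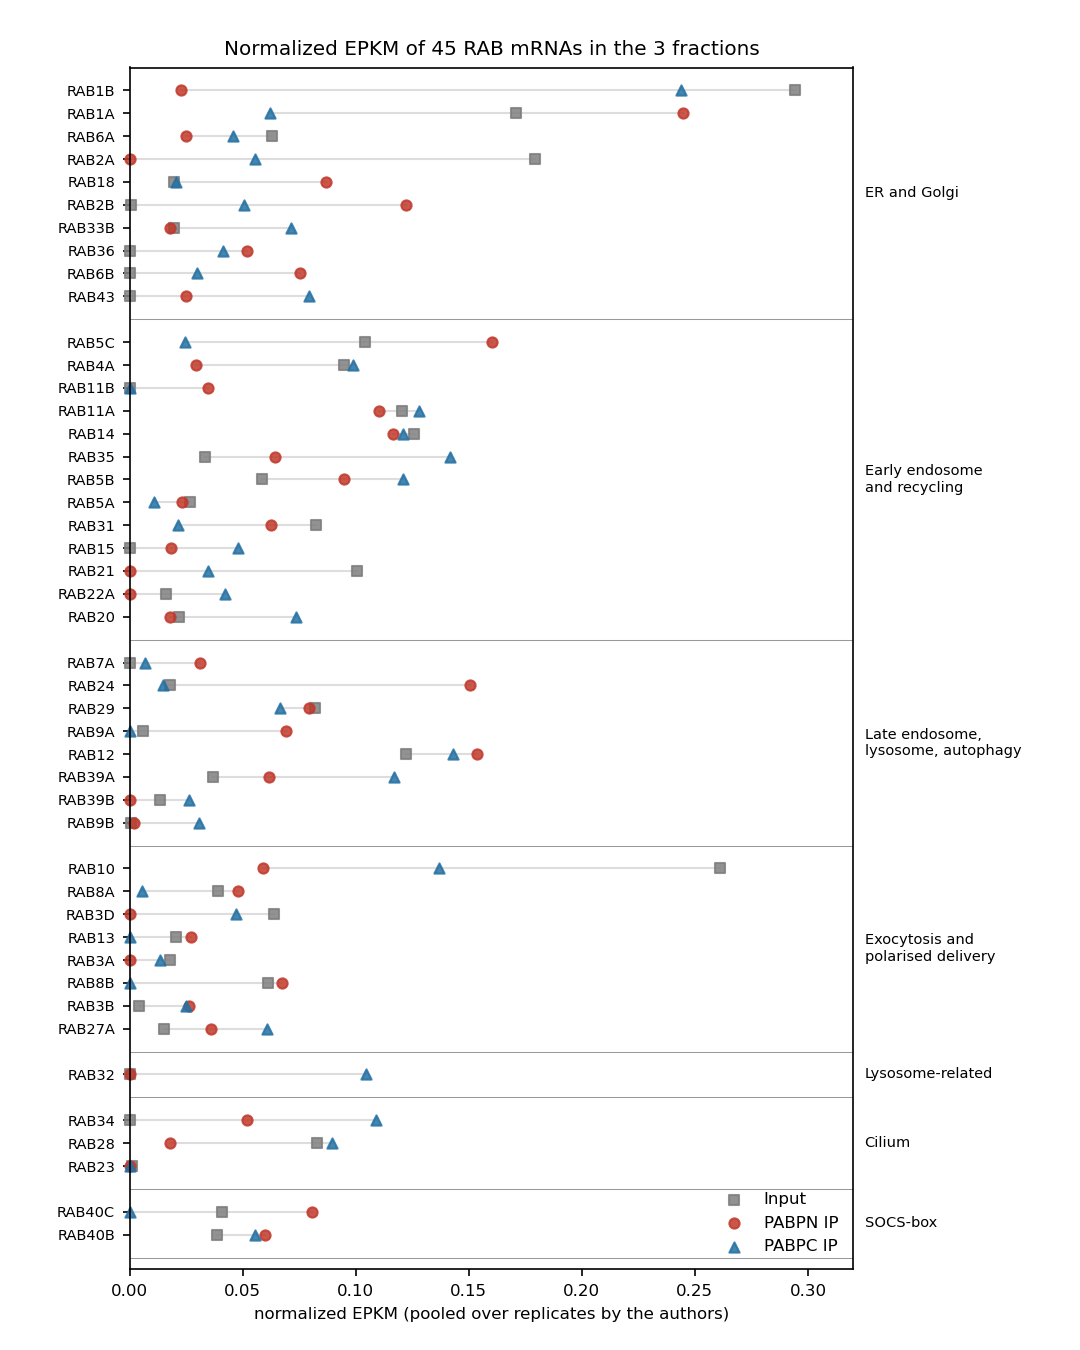
Normalized EPKM (x axis, background subtracted) of the 45 RAB mRNAs with a TPM of 5 or more in both IPs, grouped by the role of the protein and sorted by Input TPM within a group. Each row is 1 mRNA with its 1 pooled value in Input (grey squares), PABPN IP (red circles) and PABPC IP (blue triangles); RAB1B spans 0.0227 to 0.294, while RAB14 holds all 3 values between 0.116 and 0.126.

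Between the IPs, RAB mRNAs differed in both directions. EPKM was 2-fold or more higher in the PABPC IP than with PABPN for 17 of 45 members (37.8%), beside 36.3% of protein-coding genes. It was at least 2-fold lower for 14 members (31.1%), beside 21.1% of protein-coding genes. Folds were computed after adding 0.01 EPKM to each value, and with 0.1 EPKM added these counts dropped to 2 and 3. The share higher in the PABPC IP was near that of all genes, and the share lower was somewhat above it. The median EPKM of the members was 0.0108 higher in the PABPC IP, a difference of 0.0167 for all protein-coding genes. Without RAB6A alone, the members' difference of medians was 0.00537. The median of the differences within each gene was 0.0136 for the 45 members and 0.0108 for the 9607 protein-coding genes. Whether members were above or below all genes therefore depended on the measure. Over all 54 members, without a TPM limit, the median within-gene difference was 0.00212. It was not set against protein-coding genes, whose value was taken at the TPM limit only. Across the 45 members, the PABPC IP and PABPN IP values had a Spearman correlation of 0.10, and across the 9607 protein-coding genes of 0.19, as a description over genes that are not independent replicates.

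**Figure D2:**
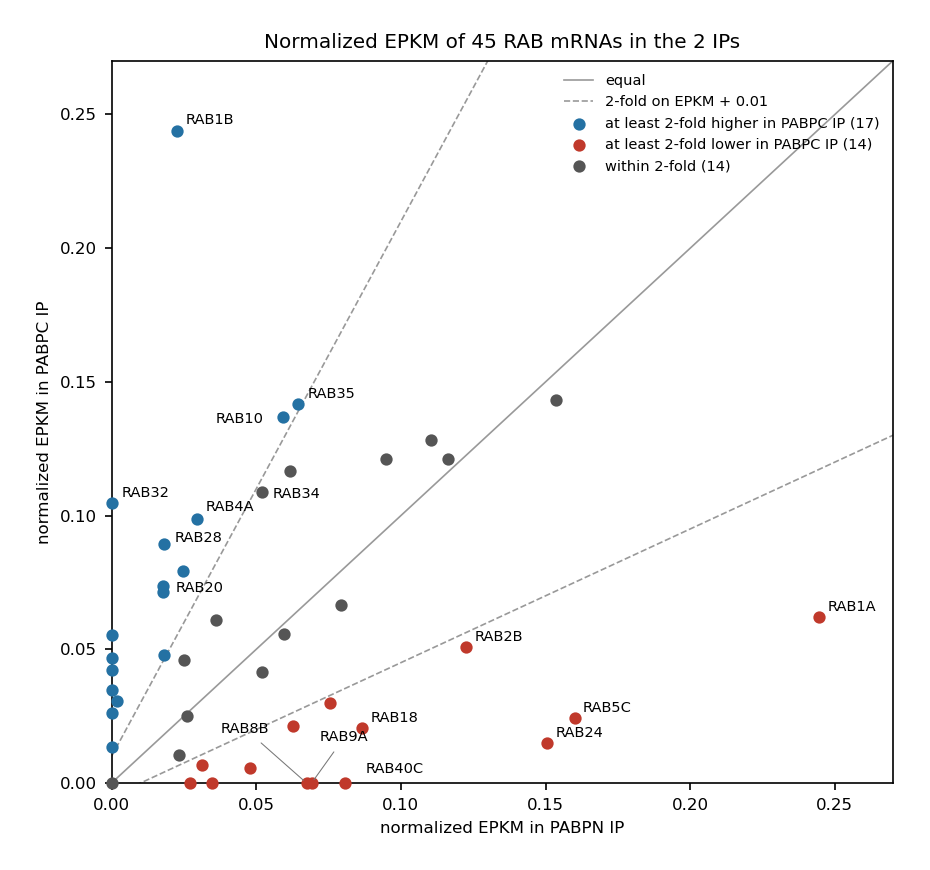
Normalized EPKM in the PABPN IP (x axis) and in the PABPC IP (y axis), 1 point per RAB mRNA (45), with the 8 largest differences in each direction named. Blue points (17) were higher by 2-fold or more and red points (14) at least 2-fold lower in the PABPC IP after adding 0.01 EPKM (dashed lines); RAB1B lies at the top left with 0.244 against 0.0227, and RAB1A at the lower right with 0.0621 against 0.245.

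The mRNAs for traffic between the endoplasmic reticulum and the Golgi held the largest absolute difference in EPKM between the IPs in each direction. By fold, RAB32 (11.5-fold higher in the PABPC IP) and RAB40C (9.07-fold lower), both of other groups, led the members above the TPM limit. RAB1B, which acts in transport from the endoplasmic reticulum to the Golgi, had an EPKM of 0.294 in Input, 0.0227 in the PABPN IP and 0.244 in the PABPC IP. RAB1A, which acts at the same step, had 0.171 in Input, 0.245 in the PABPN IP and 0.0621 in the PABPC IP. The closely related pair thus stood in opposite order in the IPs, with RAB1A above RAB1B in the PABPN IP and below it in the PABPC IP. Their coding sequences were identical at 74.9% of aligned positions, and the longest stretch shared by their transcripts was 16 bases. RAB2A, which works in Golgi traffic, was listed at 0 in the PABPN IP while it had 0.179 in Input and 0.0554 in the PABPC IP. Its relative RAB2B had 0.000699 in Input, 0.122 in the PABPN IP and 0.0508 in the PABPC IP. RAB2A and RAB2B were therefore opposite in Input and the PABPN IP, and nearly level in the PABPC IP. RAB6A, a regulator of retrograde transport through the Golgi, had 0.0629 in Input, 0.0251 in the PABPN IP and 0.0459 in the PABPC IP. These values could be affected by how reads shared with RAB6C and RAB6D were treated. RAB6B, its form abundant in neurons, was listed at 0 in Input while it had 0.0755 in the PABPN IP and 0.0299 in the PABPC IP. RAB6B was thus above RAB6A with PABPN and below it with PABPC. RAB18, found on lipid droplets and the endoplasmic reticulum, was highest in the PABPN IP, at 0.0867 against 0.0205 in the PABPC IP and 0.0197 in Input. RAB33B, a Golgi protein with a part in autophagosome formation, was highest in the PABPC IP, at 0.0712 against 0.0177 in the PABPN IP and 0.0195 in Input. Of the 10 members in this group, 4 were higher by 2-fold or more and 4 lower in the PABPC IP, where 36.3% and 21.1% of all protein-coding genes were.

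Of the 13 early endosome and recycling mRNAs, 6 were higher by 2-fold or more in the PABPC IP and 3 lower, beside 36.3% and 21.1% of all protein-coding genes, and no test of that difference was made. RAB5A, RAB5B and RAB5C, which drive fusion of early endosomes, differed among themselves. RAB5C had an EPKM of 0.104 in Input, 0.160 in the PABPN IP and 0.0243 in the PABPC IP. RAB5B had 0.0586 in Input, 0.0949 in the PABPN IP and 0.121 in the PABPC IP. RAB5A was at the members' median in Input and below it in both IPs, with 0.0268 in Input, 0.0231 in the PABPN IP and 0.0106 in the PABPC IP. RAB5C thus led the set in the PABPN IP and RAB5B in the PABPC IP. RAB11A, which marks the recycling endosome, was level in EPKM at 0.120 in Input, 0.110 in the PABPN IP and 0.128 in the PABPC IP. Its TPM in the same order was 50.2, 45.1 and 101. RAB11B was listed at 0 in Input and in the PABPC IP while it had 0.0347 in the PABPN IP. The 2 RAB11 mRNAs had nearly the same Input TPM, 50.2 for RAB11A and 52.0 for RAB11B, so they were matched in Input abundance. RAB14, which acts between the Golgi and endosomes, was as steady as RAB11A, with 0.126 in Input, 0.116 in the PABPN IP and 0.121 in the PABPC IP. RAB4A, a regulator of fast recycling, had 0.0949 in Input, 0.0296 in the PABPN IP and 0.0987 in the PABPC IP. RAB35, which acts in recycling and in cytokinesis, had 0.0335 in Input, 0.0643 in the PABPN IP and 0.142 in the PABPC IP. Both were thus highest in the PABPC IP. RAB20, a protein of endosomes and phagosomes, was also highest in the PABPC IP, at 0.0737 against 0.0179 in the PABPN IP and 0.0218 in Input. RAB31, which acts between the trans-Golgi network and endosomes, ran the other way, from 0.0825 in Input to 0.0627 in the PABPN IP and 0.0214 in the PABPC IP. RAB21, an early endosome protein that controls integrin traffic, was listed at 0 in the PABPN IP while it had 0.101 in Input and 0.0346 in the PABPC IP.

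Late endosome, lysosome and autophagy mRNAs had a lower median EPKM in the PABPC IP than in the PABPN IP, 0.0284 against 0.0654. The median of their within-gene differences was -0.0115. Medians were also lower in the PABPC IP for the exocytosis group (0.0193 against 0.0317) and the RAB40 mRNAs (0.0278 against 0.0702). In the remaining role groups they were higher. RAB7A, which directs late endosomes to lysosomes, was listed at 0 in Input while it had 0.0312 in the PABPN IP and 0.00671 in the PABPC IP. Its Input TPM of 98.9 was higher than that of 92.7% of protein-coding genes, so an abundant RAB mRNA was listed without net edits. RAB24, which takes part in autophagy, had 0.0178 in Input, 0.151 in the PABPN IP and 0.0149 in the PABPC IP. RAB9A, which returns mannose 6-phosphate receptors to the trans-Golgi network, had 0.00573 in Input and 0.0691 in the PABPN IP but was listed at 0 in the PABPC IP. RAB9B had 0.000503 in Input, 0.00186 in the PABPN IP and 0.0307 in the PABPC IP. The RAB9 pair was therefore opposite in the IPs, like the RAB1 pair. RAB39A, an endolysosomal protein, had 0.0369 in Input, 0.0616 in the PABPN IP and 0.117 in the PABPC IP. RAB39B, whose loss causes X-linked intellectual disability, had 0.0133 in Input and 0.0261 in the PABPC IP but was listed at 0 in the PABPN IP. RAB39A was thus above RAB39B in every fraction, and both were highest in the PABPC IP. RAB12, which directs transferrin receptor to degradation, was high in every fraction at 0.122 in Input, 0.154 in the PABPN IP and 0.143 in the PABPC IP. RAB29, a binding partner of the kinase LRRK2, was level in EPKM but not in TPM. It had an EPKM of 0.0818 in Input, 0.0792 in the PABPN IP and 0.0667 in the PABPC IP. Its TPM in the same order was 24.3, 111 and 60.6. In this group of 8, 2 members were higher by 2-fold or more and 3 lower in the PABPC IP, against 36.3% and 21.1% of protein-coding genes.

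Among the 8 exocytosis and polarised delivery mRNAs, 3 were higher by 2-fold or more and 3 lower in the PABPC IP, next to 36.3% and 21.1% of protein-coding genes. RAB10, which delivers vesicles to the plasma membrane, had an EPKM of 0.261 in Input, 0.0592 in the PABPN IP and 0.137 in the PABPC IP. RAB8A, a regulator of polarised exocytosis and cilium growth, had 0.0390 in Input, 0.0479 in the PABPN IP and 0.00558 in the PABPC IP. RAB8B had 0.0614 in Input and 0.0674 in the PABPN IP but was listed at 0 in the PABPC IP. Unlike the RAB1 and RAB9 pairs, both RAB8 mRNAs were low in the PABPC IP and higher in Input and the PABPN IP. Among the RAB3 mRNAs, whose proteins act on synaptic and secretory vesicles, RAB3A had 0.0179 in Input and 0.0136 in the PABPC IP but was listed at 0 in the PABPN IP. RAB3D had 0.0638 in Input and 0.0469 in the PABPC IP and was also listed at 0 in the PABPN IP. RAB3B had 0.00407 in Input, 0.0262 in the PABPN IP and 0.0251 in the PABPC IP. RAB3B was thus the only one of these 3 with net edits in the PABPN IP. RAB27A, which docks secretory lysosomes and melanosomes, had 0.0150 in Input, 0.0362 in the PABPN IP and 0.0609 in the PABPC IP.

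The remaining groups were small. RAB32, which acts in the biogenesis of melanosomes and other lysosome-related organelles, was listed at 0 in Input and the PABPN IP, against an EPKM of 0.105 for PABPC. Its Input TPM was 22.0, above the members' median of 18.4. Of the cilium mRNAs, RAB28, a ciliary protein linked to cone-rod dystrophy, had 0.0829 in Input, 0.0181 in the PABPN IP and 0.0895 in the PABPC IP. RAB34, which is needed for the early steps of ciliogenesis, was listed at 0 in Input while it had 0.0520 in the PABPN IP and 0.109 in the PABPC IP. RAB23, a negative regulator of Hedgehog signalling, had 0.00122 in Input and was listed at 0 in both IPs. The cilium mRNAs therefore ranged from no net edits in either IP to among the higher values of the family. RAB40B and RAB40C belong to the RAB40 subfamily, whose SOCS box recruits a ubiquitin ligase. RAB40B had 0.0388 in Input, 0.0597 in the PABPN IP and 0.0556 in the PABPC IP. RAB40C had 0.0411 in Input and 0.0807 in the PABPN IP but was listed at 0 in the PABPC IP. The RAB40 pair was close in Input and the PABPN IP and parted in the PABPC IP.

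**Figure D3:**
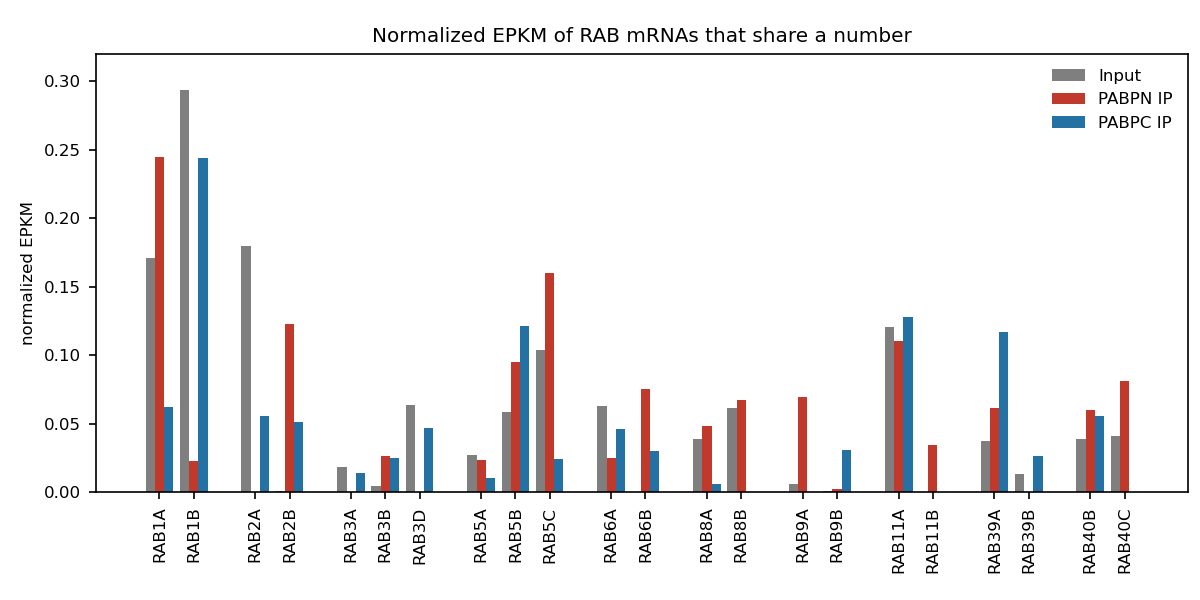
Normalized EPKM (y axis, from 0) of the 22 RAB mRNAs in the 10 sets that share a number and have at least 2 members above the TPM limit, in Input (grey), PABPN IP (red) and PABPC IP (blue), 1 pooled value per bar with no error. RAB1A and RAB1B, RAB2A and RAB2B, and RAB9A and RAB9B show opposite patterns, while RAB8A and RAB8B are both at or near 0 in the PABPC IP (0.00558 and 0).

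The 9 members below the TPM limit were above 0 in 2 cases in Input, 5 in the PABPN IP and 3 in the PABPC IP. RAB25 and RAB30 were listed at 0 in all 3 fractions. RAB4B, a recycling endosome protein, had 0.0825 in the PABPN IP and 0 in Input and the PABPC IP, at a PABPN IP TPM of 4.49. RAB38, which acts with RAB32 in pigment cells, had 0.0390 in the PABPC IP and 0 in the other fractions. RAB3C had 0.00636 in Input, 0.00831 in the PABPN IP and 0.0322 in the PABPC IP. These values rested on little RNA, since the highest TPM of the 9 in any fraction was 4.71. RAB6D had 0.0347 in Input, 0.0328 in the PABPN IP and 0 in the PABPC IP, while RAB6C had 0.00534 in the PABPN IP only. Given the shared stretches, the values of both genes could be affected by how shared reads were treated, which was not tested. RAB26 had 0.00174 in the PABPN IP only, and RAB40A had 0.00425 in the PABPC IP only.

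Each IP was also set against Input, which both comparisons share. EPKM in the PABPC IP was at least 2-fold higher than in Input for 14 members (31.1%), beside 35.1% of protein-coding genes. It was at least 2-fold lower for 9 members (20%), beside 19.5% of protein-coding genes. Both shares were close to those of all genes. In the PABPN IP, it was at least 2-fold higher than in Input for 12 members (26.7%), beside 28.4% of protein-coding genes. It was at least 2-fold lower for 11 members (24.4%), beside 29.6% of protein-coding genes. For PABPN as well, the shares of RAB mRNAs past 2-fold were near those of all genes, and a little below them. With 0.1 EPKM added, the PABPC IP counts were 2 and 0 and the PABPN IP counts 2 and 4, in the same order. The 5 members with the highest Input TPM differed in Input EPKM. RAB1B, with a TPM of 273, had the highest Input EPKM of the family, and RAB10, with 91.2, the next highest. RAB5C, with a TPM of 123, and RAB4A, with 76.2, had intermediate Input EPKM, and RAB7A had none above 0. Input EPKM and Input TPM had a Spearman correlation of 0.49 across the 45 members and of 0.53 across the 9607 protein-coding genes. In the PABPC IP, the correlation between TPM and EPKM was 0.19 across members and 0.45 across protein-coding genes, and in the PABPN IP 0.39 and 0.25.

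In RNA recovery, RAB mRNAs had a smaller share of high PABPN ratios than all genes and a larger share of high ratios of PABPC over PABPN. Association with each protein was read as the log2 ratio of TPM, centred on the median of the 9607 protein-coding genes, which was 1.14 for PABPN IP over Input, 0.99 for PABPC IP over Input and -0.19 for PABPC IP over PABPN IP. All directions of TPM ratios are relative to these medians. The PABPN IP over Input ratio was at least 0.5 above the median for 6 members (13.3%), beside 24.5% of protein-coding genes. It was at least 0.5 below it for 21 members (46.7%), beside 21.6% of protein-coding genes. More members were thus low than high with PABPN. The members' median ratio was -0.45, which became 0.69 without centring. The PABPC IP over Input ratio was at least 0.5 above the median for 4 members (8.89%), beside 8.37% of protein-coding genes. It was at least 0.5 below it for 0 members, beside 18.1% of protein-coding genes. The members' median ratio was 0.21, and 37 of 45 members were above 0. RAB mRNAs were thus seldom far from other genes in the PABPC IP, yet mostly on the upper side of their median.

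Directly between the IPs, the TPM ratio of PABPC over PABPN was at least 0.5 above the median for 29 members (64.4%), beside 30.4% of protein-coding genes. It was at least 0.5 below it for 5 members (11.1%), beside 31.5% of protein-coding genes. The members' median was 0.71, with quartiles of 0.33 and 1.08, while the quartiles of all protein-coding genes were -0.71 and 0.64. Most of these 45 members therefore lay above the middle of all genes. The authors reported that coding length correlated negatively with PABPC enrichment in total cell lysate. Members and other genes were not matched for coding length here, and its part in the contrast was not tested. The summed TPM of the 54 members was 1512 in Input, 2208 in the PABPN IP and 3487 in the PABPC IP, or 0.177%, 0.226% and 0.350% of the TPM of all listed genes. RAB1B alone made up 18.1%, 15.6% and 19.2% of the members' sum in those fractions.

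**Figure D4:**
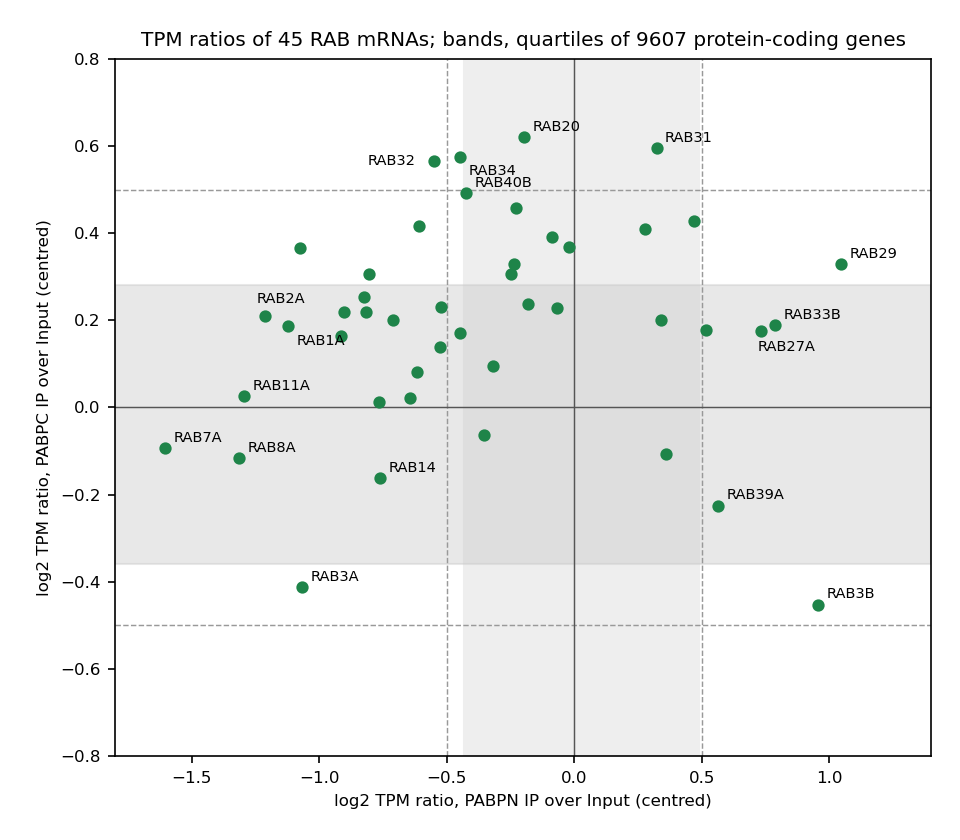
Log2 TPM ratio of PABPN IP over Input (x axis) and PABPC IP over Input (y axis), each centred on the median of 9607 protein-coding genes, 1 point per RAB mRNA (45); dashed lines mark 0.5 and -0.5, and grey bands the quartiles of the protein-coding genes. Most points lie left of 0 on the x axis and above 0 on the y axis, from RAB7A at -1.60 to RAB29 at 1.05 for PABPN.

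By role, the low PABPN recovery was clearest in the exocytosis group, with a median PABPN IP over Input ratio of -0.83, and present in the early endosome group at -0.61 and the endoplasmic reticulum and Golgi group at -0.53. The late endosome group stood apart with a median of 0.37. RAB29 had the highest PABPN ratio of the members above the TPM limit, with a TPM of 24.3 in Input, 111 in the PABPN IP and 60.6 in the PABPC IP (centred ratio 1.05). RAB39A had 16.7 in Input, 54.4 in the PABPN IP and 28.4 in the PABPC IP (0.56). Within the same group, RAB7A had the lowest ratio of all, with a TPM of 98.9 in Input, 71.6 in the PABPN IP and 184 in the PABPC IP (-1.60). The next members by PABPN ratio belonged to other roles. RAB3B and RAB27A were in the exocytosis group despite its low median, and RAB33B was in the endoplasmic reticulum and Golgi group. RAB3B had a TPM of 3.52 in Input, 15.0 in the PABPN IP and 5.10 in the PABPC IP (0.96). RAB33B had 8.29 in Input, 31.5 in the PABPN IP and 18.8 in the PABPC IP (0.79). RAB27A had 2.40 in Input, 8.77 in the PABPN IP and 5.38 in the PABPC IP (0.73). These 3 mRNAs were of low abundance in Input. At the low end after RAB7A came RAB8A, with a TPM of 50.6 in Input, 44.8 in the PABPN IP and 92.7 in the PABPC IP (-1.32). RAB11A had 50.2 in Input, 45.1 in the PABPN IP and 101 in the PABPC IP (-1.29). RAB2A followed at a centred ratio of -1.21 and RAB1A at -1.12. RAB7A, RAB8A, RAB11A and RAB2A were the only members above the TPM limit with a lower TPM in the PABPN IP than in Input before centring. RAB1A thus combined 1 of the lowest PABPN recoveries with the highest PABPN EPKM of the family, so RNA recovery and editing ran in opposite directions for it.

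For the PABPC IP over Input, RAB20 had the highest centred ratio at 0.62, with a TPM of 3.29 in Input and 10.0 in the PABPC IP. RAB31 had 17.9 in Input and 53.7 in the PABPC IP (0.59). RAB34 had 32.6 in Input and 96.4 in the PABPC IP (0.58). RAB34 and RAB20 were also higher in EPKM in the PABPC IP than in the PABPN IP, whereas RAB31 was not. RAB32 had 22.0 in Input and 64.6 in the PABPC IP (0.57), and RAB40B stood just under the limit at 0.49. The lowest ratios above the TPM limit were -0.45 for RAB3B, -0.41 for RAB3A, -0.23 for RAB39A, -0.16 for RAB14 and -0.12 for RAB8A. Among the RAB3 mRNAs, RAB3B and RAB3A were thus both low with PABPC but parted with PABPN, at 0.96 and -1.07, and RAB3D was at 0.16 and -0.92 for PABPC and PABPN. RAB1B was at 0.31 for PABPC and -0.80 for PABPN, on the same side of the median as RAB1A in both, although their EPKM was opposite. Likewise RAB5C, at 0.37 and -1.07, was recovered more with PABPC while its EPKM was higher with PABPN.

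**Figure D5:**
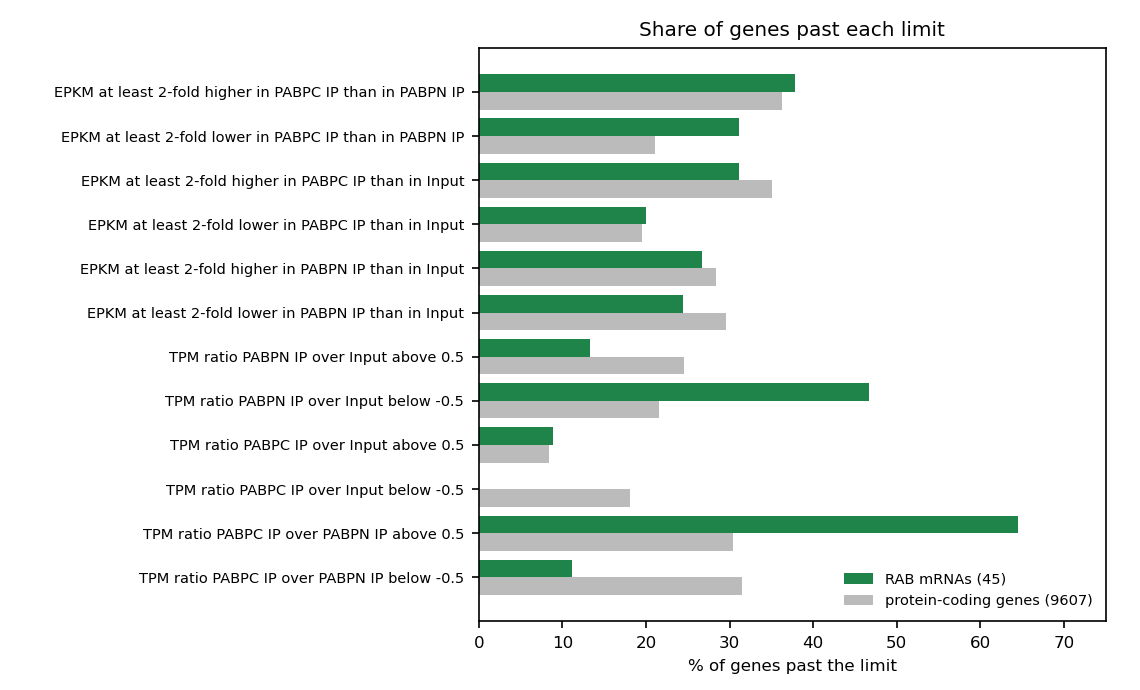
Share of genes (x axis, percent, from 0) past each limit for the 45 RAB mRNAs (green) and the 9607 protein-coding genes (grey), for EPKM folds (upper 6 pairs of bars) and centred log2 TPM ratios (lower 6 pairs). Among the EPKM bars, the widest gap is 31.1% of members against 21.1% of genes lower in the PABPC IP than in the PABPN IP, and among the TPM bars 64.4% of members against 30.4% of genes passed 0.5 for PABPC over PABPN.

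Transcript features varied within the family more than the coding part did. Coding length ran from 585 to 1023 bases over the 45 members, with a median of 648, whereas the canonical transcript ran from 1065 to 15558 bases. The 3' UTR had a median length of 2356 bases and a maximum of 14613. Across members, Spearman correlation between 3' UTR length and the PABPC over PABPN TPM ratio was -0.33, and between 3' UTR length and EPKM 0.0171 in Input, -0.0625 in the PABPN IP and -0.0123 in the PABPC IP. The share of cytidine in the transcript, the base that APOBEC1 edits, had a correlation of -0.35 with EPKM in Input, -0.0254 in the PABPN IP and -0.0489 in the PABPC IP. None of these features ordered the RAB mRNAs closely by editing. By coding end, the 14 members ending in an adjacent cysteine pair had median EPKM of 0.0576, 0.0609 and 0.0587 in Input, PABPN IP and PABPC IP, and the 14 with the spaced pair 0.0165, 0.0256 and 0.0474. The 8 members with a single cysteine codon, followed by 3 others, had 0.0389, 0.0538 and 0.00279. For the 4 with an adjacent pair followed by 2 codons the medians were 0.0427, 0.123 and 0.0196. These last 2 classes were lower in the PABPC IP than in the PABPN IP, and 3 and 2 members made up the rest.

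The proteins that carry and modify RAB proteins had mRNAs with their own patterns of editing. GDI2, a GDP dissociation inhibitor, had an EPKM of 0.172 in Input and 0.147 in the PABPN IP but was listed at 0 in the PABPC IP. RABIF, a RAB chaperone, had 0.0873 in Input, 0.0673 in the PABPN IP and 0.0719 in the PABPC IP. GDI2 was thus lower in the PABPC IP than in either other fraction, while RABIF differed less. The escort protein gene CHM had 0.00631 in Input, 0 in the PABPN IP and 0.00114 in the PABPC IP, and CHML had 0.0487, 0.0306 and 0.0366 in the same order, with no TPM given. Of the enzyme that prenylates RAB proteins, the beta subunit RABGGTB had 0.0632 in Input, 0.0380 in the PABPN IP and 0.159 in the PABPC IP, and the alpha subunit RABGGTA had 0.0313 in the PABPN IP and 0 in the other fractions. Both subunits had net edits in the PABPN IP, and of the pair only RABGGTB had them in the PABPC IP.

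Among 33 RAB GEF genes above the TPM limit, 16 were higher by 2-fold or more and 8 lower in EPKM in the PABPC IP than in the PABPN IP, led by TRAPPC3 (0.0388 with PABPN, 0.231 with PABPC) and SBF1 (0.0466, 0.220) upward and by CCZ1 (0.153, 0) and TRAPPC2L (0.0979, 0) downward. CCZ1B, a near-identical duplicate of CCZ1, ran the other way (0.00222, 0.100), and exchange of reads between the pair was not tested. Of 31 GAP genes, 11 were higher and 7 lower, led by TBC1D14 (0, 0.188) and TBC1D10B (0, 0.158) upward and by RAB3GAP1 (0.111, 0.0388) and TBC1D31 (0.0531, 0) downward. Of 27 effector genes, 9 were higher and 5 lower, led by MICALL1 (0, 0.123) and RBSN (0.0263, 0.140) upward and by BICD2 (0.0759, 0.00373) and RAB11FIP1 (0.0914, 0.0234) downward. Each list had more genes higher than lower, as did all protein-coding genes (36.3% and 21.1%), so this order was not read as a trait of the lists. In TPM, these regulators and effectors together (97 genes with the dissociation inhibitors and the prenylation enzyme) had a median PABPC over PABPN ratio of -0.27, against 0.71 for the RAB mRNAs. The lists differed, with medians of 0.05 for GEF, -0.20 for GAP and -0.50 for effector genes, each below that of the RAB mRNAs. These lists were not matched to the RAB mRNAs for coding length either.

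Other small GTPases also lay above the median of all genes in recovery between the IPs, with median PABPC over PABPN ratios of 0.74 for 18 RAS and 0.47 for 24 ARF and ARL genes. In EPKM, 9 RAS genes were 2-fold or more higher in the PABPC IP and 1 lower, with the largest differences in HRAS (0 with PABPN, 0.170 with PABPC), RASL11A (0.0266, 0.144), RIT1 (0.0634, 0) and RAP2C (0.327, 0.265). Of the ARF and ARL genes 7 were higher and 4 lower, with ARL2 (0.0331, 0.155), ARL3 (0, 0.0696) and ARF6 (0.264, 0.0529) among the largest differences. More genes higher than lower in the PABPC IP was also the order among all protein-coding genes (36.3% and 21.1%). No difference from these shares was tested for the RAS, ARF and ARL, RAB-like or SNARE genes. Among 7 RAB-like genes 5 were higher and 1 lower, with RABL6 (0, 0.143), RABL2B (0, 0.0860) and RABL3 (0.0136, 0) at the ends. Among 33 genes for SNAREs, which fuse the vesicles that RAB proteins direct, 11 were higher and 8 lower, with STX8 (0.0336, 0.194), VAMP3 (0.0256, 0.185), STX2 (0.185, 0.0573) and STX6 (0.124, 0) at the ends.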

How the data were processed

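Edits and RNA abundance were taken from 1 deposited table with values per gene for Input, PABPN IP and PABPC IP. The normalized EPKM is a signal value made by the authors from RPS2-STAMP samples with the Control-STAMP background subtracted, from edits with a confidence score of at least 0.5. TPM is a signal value deposited as the average per fraction, with exonic and intronic TPM summed. The submitters' processing notes name STAR (version not given in the sources used here) and featureCounts 2.0.2, and the reads were aligned to hg38. How replicates were combined and how values below 0 were treated is not given in the sources used here. As all columns are pooled, no test was made and no p-value is given.

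Which samples entered the TPM averages is not given there either. Genes compared had a TPM of 5 or more with each protein. EPKM folds used log2(EPKM + 0.01), with 2-fold as the limit. TPM ratios were log2 values centred on the median of protein-coding genes, with limits of 0.5 and -0.5. The members and lists were chosen with earlier results of these data known. Named with values were the 8 largest differences in EPKM in each direction between the IPs, the 5 highest Input TPM, the 5 highest and lowest TPM ratios of each IP over Input, sets sharing a number, members at 0 in every fraction (none above the TPM limit), and low members with any EPKM above 0. Of the partner lists (GDI and escort, prenylation, GEF, GAP, effector, ARF and ARL, RAS, RAB-like, SNARE), the first 2 were named in full, and of the others the 2 largest differences in each direction, apart from a few genes not analysed here. RAB12, RAB21, RAB23 and CCZ1B were named after their values were seen. Coding ends, lengths and base content came from the canonical transcripts of GENCODE 44, with the printed stretches checked against hg38. Analysis used Python 3.11.15, pandas 2.3.3, NumPy 2.4.6, SciPy 1.17.1, matplotlib 3.10.9 and Biopython 1.88. The calls were also run on simulated data, whose outcome is not given and on which no result here rests. Other filters, pseudocounts, centring and limits were tried.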

Additional observations from a re-analysis of the deposited data

Results flagged for a closer look

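Net edits were also listed for 7 non-coding genes that are named after RAB genes and enter none of the comparisons, and each value given is the highest of the 3 fractions. Among the pseudogenes, RAB43P1 had an EPKM of 0.154 in Input, RAB1C 0.0222 in the PABPC IP and RAB6C-AS1, annotated as a transcribed pseudogene, 0.00828 in the PABPN IP. RAB11B-AS1, named as antisense to RAB11B, had 0.114 in the PABPC IP, where RAB11B itself was listed at 0. RAB5C-AS1 had 0.0562 in the PABPN IP, RAB30-DT 0.0409 in the PABPN IP and RAB33B-AS1 0.00258 in Input. Little RNA lay behind several of these values, with a TPM of 0.0833 for RAB43P1 in Input and 0.742 for RAB1C in the PABPC IP. These values already had the control editing subtracted. Whether reads of the parent or overlapping genes contributed to them was not tested.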

How the results depend on the processing

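No paired analysis was possible because each fraction has 1 pooled value per gene, and neither leaving out a replicate nor a replicate block could be run on such values. Values within 1.5 times the reported one were taken as unmoved, for counts, medians and means, which held for 70 of 102 recomputed values. The median EPKM difference between PABPC IP and PABPN IP, reported as 0.0108, stayed positive under every alternative run. It was 0.00642 without a TPM filter, 0.00346 at a TPM of at least 20, 0.00586 over members above 0 in both IPs, 0.00428 as a difference of means and 0.00537 without RAB6A, an alternative chosen after seeing the data. The counts at least 2-fold higher and lower in the PABPC IP, 17 and 14 as reported, were 10 and 9 at a TPM of at least 20, 2 and 3 with 0.1 EPKM added, and 10 and 9 over members above 0 in both IPs. Against Input, also an alternative chosen after seeing the data, adding 0.1 EPKM left 2 higher and 0 lower in the PABPC IP, and 2 higher and 4 lower in the PABPN IP. The added constant lies above most EPKM values, which shrinks the folds by construction. The Input median was 0.0586 at a TPM of at least 20 and 0.0546 as a mean. At a TPM of at least 20, which left 29 members, 24 were above 0 in Input, 24 in the PABPN IP and 25 in the PABPC IP.

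The PABPN over Input ratio reversed without centring, to a median of 0.69, with 29 members past 0.5 above and 0 below. The PABPC over Input median became 1.20 without centring, with 45 members past 0.5. Both shifts follow from the medians of all protein-coding genes. With a limit of 1, 1 member was above and 7 below for PABPN over Input, 0 above for PABPC over Input, and 14 above and 1 below for PABPC over PABPN. At a TPM of at least 1, 8 members were above 0.5 for PABPC over Input and 3 below -0.5 for PABPC over PABPN. This setting left 51 members, with all 45 among them, and centred the ratios on protein-coding genes at that TPM. The lower count below -0.5 thus came with the new centre, while the higher count above 0.5 mixed both changes. The median ratio of PABPC over PABPN ran from 0.52 without centring to 0.80 at a TPM of at least 1. The pooled values allow no error, and low EPKM values rest on an unknown number of edits.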
